A study of Mus musculus with 14 samples.

Results

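The corpus is the middle segment of the epididymis, the coiled duct in which sperm leaving the testis mature. MicroRNAs of the mouse corpus were measured in isolated epithelial cells (2 libraries) and in whole tissue (2 libraries), which are 4 of the 14 libraries of a series that also holds 5 caput and 5 cauda libraries. All libraries came from untreated male Swiss mice aged 8 weeks, and vessels were perfused with PBS before dissection. For the epithelial preparation sperm were cleared, the segment was minced and digested with trypsin and then collagenase, and epithelial cells were collected from the suspension after the non-epithelial cells, which the study names as fibroblasts and muscle cells, had attached to culture plates. RNA from several mice was pooled for each replicate, with more mice per pool for epithelial cells than for tissue, so a library is a pool and not an animal. The 2 preparations were deposited as separate tables, with older miRNA names in the epithelial table. Preparation, table, naming release, depth and pool size therefore cannot be told apart in these data. The study calls the replicates biological in the text and technical in a table note, and p-values measure only the spread between these libraries.

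A miRNA is cut from a hairpin precursor by DROSHA and DICER1, after which usually a single arm of the hairpin is retained in an Argonaute protein and guides it to messenger RNAs. Pairing rests mainly on the seed, bases 2 to 8 of the mature miRNA, so miRNAs with a common seed can share targets. Many miRNAs mark cell types. The miR-200 family, miR-205 and miR-203 are characteristic of epithelia, miR-143 and miR-145 of smooth muscle, miR-199 and miR-214 of mesenchyme, miR-126 of endothelium, and miR-142 and miR-150 of blood leukocytes. The corpus epithelium lies within a smooth muscle coat and interstitium, and its lumen carries sperm.

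The mature sequences on which the results turn are given with the seed in capitals, as listed by RefSeq for GRCm38.p6. The first set holds miRNAs that were higher in epithelial cells and shows that miR-196a-5p and miR-196b-5p have the same seed.
miR-205-5p: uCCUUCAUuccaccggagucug
miR-146a-5p: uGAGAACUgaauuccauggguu
miR-196a-5p: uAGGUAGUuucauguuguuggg
miR-196b-5p: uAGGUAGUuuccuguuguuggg
The second set holds miRNAs that were lower in epithelial cells, among them the pair miR-148a-5p and miR-148b-5p, which share a seed, together with miR-34b-3p, which was not called and is shown as the seed partner of miR-34c-3p.
miR-101b-3p: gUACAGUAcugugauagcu
miR-148a-5p: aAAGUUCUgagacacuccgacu
miR-148b-5p: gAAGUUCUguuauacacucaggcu
miR-34c-3p: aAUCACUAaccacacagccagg
miR-34b-3p: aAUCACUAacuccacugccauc
miR-411-5p: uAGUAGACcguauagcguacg
The third set is shown for contrast: miR-101a-3p is the near copy of miR-101b-3p, miR-205-3p is the other arm of the miR-205 hairpin, and miR-126a-3p behaved differently in the corpus and in the other segments.
miR-101a-3p: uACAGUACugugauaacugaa
miR-205-3p: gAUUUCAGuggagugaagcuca
miR-126a-3p: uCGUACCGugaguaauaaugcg

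In GENCODE annotation of the same build, miR-205-5p (chr1:193507503-193507524, minus strand) and miR-205-3p (chr1:193507467-193507488) lie in an exon of the long non-coding RNA gene 4631405K08Rik. miR-196b-5p (chr6:52230129-52230150, minus strand) overlaps an exon of Hoxa9. miR-196a-5p comes from 2 loci, chr11:96265187-96265208 and chr15:102973365-102973386, both on the plus strand, and the second lies in an intron of Hoxc5. miR-101b-3p (chr19:29135338-29135356, plus strand) lies in an intron of Rcl1, and miR-101a-3p (chr4:101346957-101346977, minus strand) in an exon of E130102H24Rik. miR-148b-5p (chr15:103285148-103285171, plus strand) lies in an intron of Copz1, and miR-126a-3p (chr2:26591402-26591423, plus strand) in the annotated exons of Egfl7. miR-34c-3p (chr9:51103044-51103065) and miR-34b-3p (chr9:51103574-51103595), both on the minus strand, lie opposite an intron of Btg4. No other gene of the annotation covered miR-146a-5p (chr11:43374435-43374456, minus strand), miR-148a-5p (chr6:51269867-51269888, minus strand) or miR-411-5p (chr12:109710190-109710210, plus strand).

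The epithelial libraries held 127111 and 89039 counts and the tissue libraries 1243398 and 1390826. The mean depth, in counts of mature miRNAs, was thus 12.2 times as high in tissue. A mean count above 10, the study's rule for a miRNA being present, was met by 147 miRNAs in epithelial cells and 296 in tissue. All 147 were also present in tissue, and 149 passed in tissue alone. In the epithelial libraries 10 counts stood for 78.7 and 112 CPM when taken relative to the library total, against 8.04 and 7.19 CPM in tissue. The CPM given for single miRNAs from here on are relative to TMM-scaled totals, so they differ somewhat from a count over the library total. When the tissue counts were scaled down to the epithelial total, 158 miRNAs passed in tissue, of which 137 also passed in epithelial cells and 21 did not. Most of the 149 would thus not have passed at the epithelial depth in tissue either, and they cannot be called absent from the epithelium.

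Differences were tested over the 296 miRNAs present in either preparation, in a limma-voom fit with TMM scaling that used all 14 libraries for its estimate of spread. A miRNA is called here when its FDR was below 0.05 and the preparations differed at least 2-fold. 77 of the 296 miRNAs were called (26%). Of these, 24 were higher in epithelial cells (8.11%) and 53 were lower (17.9%), and the median difference over all 296 was -0.17 log2. With DESeq2 size factors in place of TMM the split was 30 higher and 41 lower. All 77 had epithelial and tissue libraries that did not overlap, which by itself was common, since both epithelial libraries lay above both tissue libraries for 26.4% of the miRNAs tested and below them for 48%. Among the 147 miRNAs present in both preparations, 20 were higher and 16 lower. Among the 149 present in tissue alone, 4 were higher and 37 lower, and 24 of the 53 lower miRNAs had at most 3 counts in each epithelial library. The count of 77 was 50 without epithelial replicate 2, and 32 of the 77 (16 higher and 16 lower) were called alike whichever of the 4 corpus libraries was left out.

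**Figure D1:**
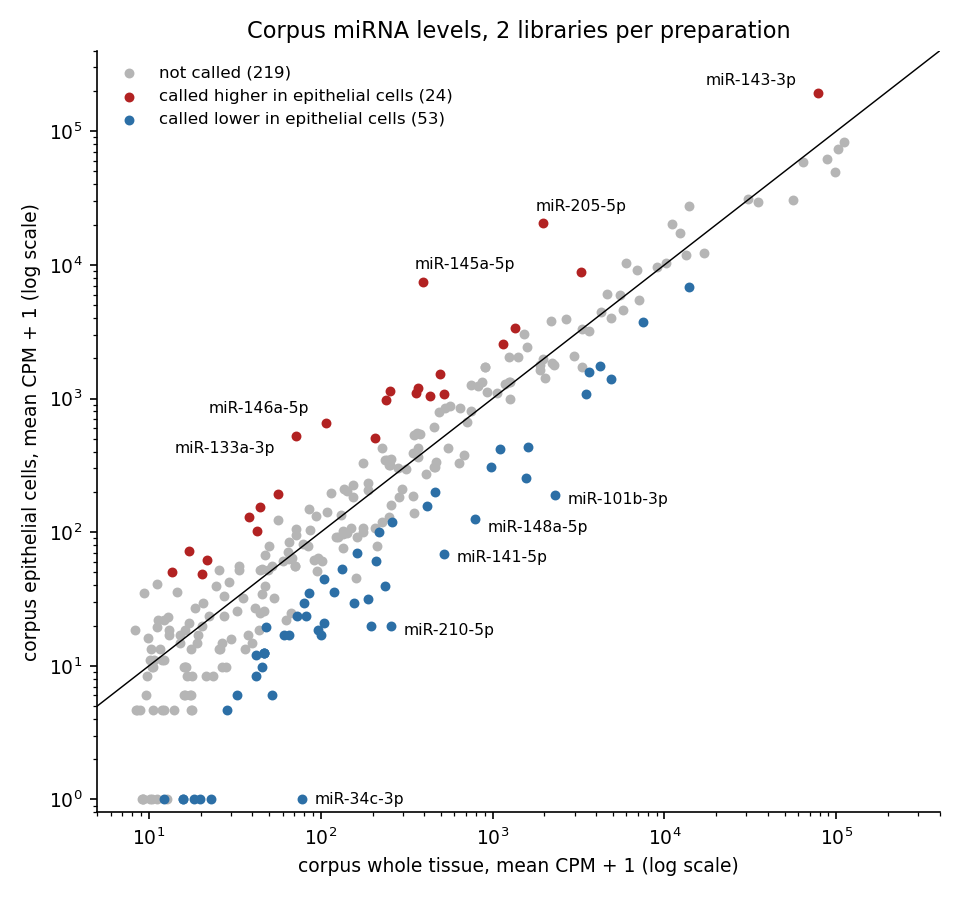
Mean CPM plus 1 of the 296 miRNAs tested in corpus whole tissue (x axis, log scale) and corpus epithelial cells (y axis, log scale), 2 libraries each; points are miRNAs and the line marks equal levels. The 24 miRNAs called higher lie above the line, led by miR-145a-5p and miR-205-5p in distance, and the 53 called lower lie below it, with miR-34c-3p at 0 counts in both epithelial libraries.

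The largest rises included 2 of the 10 miRNAs listed for epithelial identity, of which 7 were not called and 1 was lower. miR-205-5p, which with the miR-200 family represses the ZEB factors of epithelial-mesenchymal transition, stood at 18929 and 22015 CPM in the epithelial libraries and at 2024 and 1928 CPM in tissue. The difference was 10.3-fold (log2 3.37 ± 0.16 SE, adjusted p = 9.85e-10), and the groups were far apart. miR-203-3p, a miRNA of differentiating stratified epithelium, reached 125 and 131 CPM against 37.8 and 36.3 CPM in tissue (log2 1.82 ± 0.54, adjusted p = 0.0174). This rise rested on 17 and 13 epithelial counts, and the adjusted p lay between 0.0514 and 0.0768 when any of the 4 corpus libraries was left out.

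The largest rise of all was that of miR-145a-5p, a miRNA of differentiated smooth muscle. It measured 4106 and 10791 CPM in epithelial cells and 384 and 402 CPM in tissue. The epithelial libraries disagreed with each other by more than the tissue libraries did, yet both lay well above tissue (16.5-fold, log2 4.05 ± 0.64, adjusted p = 0.000204). miR-145a-5p was joined by adding the letter a to its epithelial name, so the fit limited to names spelled alike did not include it. Its reference sequence may therefore differ between the tables. Its cluster partner miR-143-3p was the most abundant miRNA of the epithelial libraries, with 188555 and 196363 CPM against 79276 and 77604 CPM in tissue (log2 1.29 ± 0.25, adjusted p = 0.0011). miR-133a-3p, a miRNA of skeletal and heart muscle, was at 505 and 534 CPM in epithelial cells and at 38.2 and 103 CPM in tissue (log2 3.02 ± 0.92, adjusted p = 0.0198). The tissue libraries were uneven for miR-133a-3p, and its adjusted p was 0.0739 without epithelial replicate 1, 0.0762 without epithelial replicate 2 and 0.103 without tissue replicate 1.

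The Hox-embedded pair with a common seed moved together. miR-196b-5p was at 1091 and 1199 CPM in epithelial cells and 216 and 287 CPM in tissue (log2 2.19 ± 0.32, adjusted p = 8.99e-05), and miR-196a-5p was at 833 and 1118 CPM against 223 and 253 CPM (log2 2.01 ± 0.20, adjusted p = 4.47e-06). miR-196 is known to direct cleavage of the Hoxb8 messenger RNA. They are nearly identical in sequence, so reads of the pair could be divided between them, and their differences are not independent. Of the 6 miRNAs listed for the Hox clusters these 2 were higher, 1 was lower and 3 were not called, where 8.11% of all tested were higher and 17.9% lower, and the median was -0.29 log2. The lower one was miR-10b-3p (0 and 0 counts against 22 and 20, adjusted p = 0.0178), for which the epithelial depth gives little power and whose call was lost without 3 of the corpus libraries (adjusted p = 0.0682 to 0.134).

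Among the other rises, miR-146a-5p, a feedback inhibitor of NF-kB signalling through Traf6 and Irak1, was at 531 and 776 CPM against 96.4 and 115 CPM in tissue (log2 2.58 ± 0.35, adjusted p = 4.6e-05). miR-221-3p, which targets the cell cycle inhibitor Cdkn1b and the receptor Kit, was at 1076 and 1320 CPM against 347 and 388 CPM (log2 1.69 ± 0.18, adjusted p = 7.93e-06). Neither lost its call when a corpus library was left out. miR-28a-3p was at 147 and 161 CPM against 36.4 and 49.7 CPM (log2 1.87 ± 0.27, adjusted p = 0.000105). miR-324-5p was at 125 and 262 CPM against 49 and 62.5 CPM (log2 1.68 ± 0.36, adjusted p = 0.00198), with an adjusted p of 0.052 without epithelial replicate 2. Smaller rises included miR-30a-5p (log2 1.42), let-7b-5p (1.31), miR-20a-5p (1.31) and miR-25-3p (1.15).

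**Figure D2:**
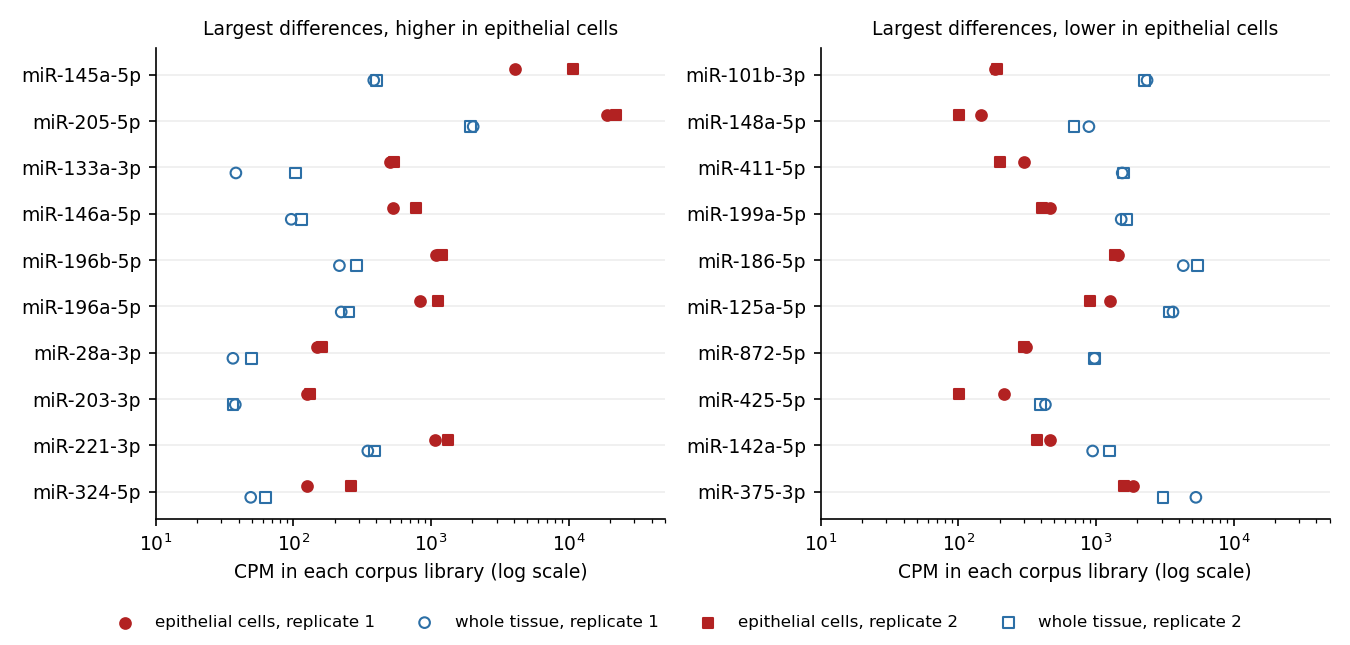
CPM in each corpus library (x axis, log scale) of the 10 largest called rises (left) and the 10 largest called falls (right) among miRNAs present in both preparations; filled symbols are epithelial libraries, open symbols tissue libraries, circles replicate 1 and squares replicate 2. Epithelial and tissue libraries are apart for all 20 miRNAs; miR-145a-5p has the widest epithelial pair (4106 and 10791 CPM), and miR-133a-3p and miR-375-3p have wide tissue pairs.

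The largest fall among miRNAs present in both preparations was that of miR-101b-3p, of a family that targets the histone methyltransferase Ezh2. It had 184 and 191 CPM in epithelial cells and 2353 and 2260 CPM in tissue, a 12-fold difference (log2 -3.59 ± 0.24, adjusted p = 4.44e-08). Its near copy miR-101a-3p, named here after its values were seen, did not share the fall, with 1732 and 1844 CPM against 1853 and 1919 CPM (log2 -0.08 ± 0.15, adjusted p = 0.734). The sequences listed above overlap over most of their length, with miR-101b-3p starting a base earlier and ending sooner. How reads that match both were assigned is not given in the sources used here, so the division between the pair is uncertain in either table. The name miR-101b-3p may also stand for different reference sequences in the 2 tables, which would change what its fall means.

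The other large falls came from several groups. miR-411-5p, of the imprinted Dlk1-Dio3 cluster, was at 302 and 202 CPM in epithelial cells and 1553 and 1579 CPM in tissue (log2 -2.61 ± 0.35, adjusted p = 4.6e-05). miR-199a-5p, a mesenchymal miRNA, was at 464 and 403 CPM against 1526 and 1669 CPM (log2 -1.86 ± 0.30, adjusted p = 0.000204). miR-142a-5p, of haematopoietic cells, was at 464 and 373 CPM against 947 and 1259 CPM (log2 -1.37 ± 0.27, adjusted p = 0.00133). In each of these the lowest tissue library was above the highest epithelial library. miR-186-5p was at 1437 and 1380 CPM against 4310 and 5463 CPM (log2 -1.78 ± 0.19, adjusted p = 8.6e-06). miR-125a-5p, a lin-4 homologue that targets Lin28, was at 1268 and 907 CPM against 3631 and 3399 CPM (log2 -1.69 ± 0.21, adjusted p = 2.75e-05). miR-872-5p was at 310 and 302 CPM against 976 and 974 CPM (log2 -1.65 ± 0.23, adjusted p = 5.94e-05). All 6 kept their calls without any single corpus library.

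The calls of miR-425-5p and miR-375-3p were less secure. miR-425-5p was at 214 and 101 CPM against 430 and 397 CPM (log2 -1.40 ± 0.34, adjusted p = 0.00519), and its adjusted p was 0.0762 without epithelial replicate 2. miR-375-3p, known from pancreatic islet cells and also from other secretory epithelia, was at 1865 and 1612 CPM against 5325 and 3069 CPM (log2 -1.21 ± 0.44, adjusted p = 0.0417). Its tissue libraries were uneven, and its adjusted p was between 0.135 and 0.187 without epithelial replicate 1, epithelial replicate 2 or tissue replicate 1. With all corpus libraries kept, it was called in 5 of 11 alternatives (adjusted p up to 0.11).

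Several called miRNAs had few counts in epithelial cells. miR-34c-3p had 0 counts in both epithelial libraries and 94 and 125 counts in tissue. Set against 3 counts in each epithelial library it was at least 2.94-fold lower (adjusted p = 3.29e-05). miR-210-5p, from the hypoxia-induced miR-210 hairpin, had 1 and 3 counts against 392 and 325 (log2 -3.67 ± 0.63, adjusted p = 0.000402). miR-335-3p, from an intron of the imprinted gene Mest, had 1 and 3 counts against 269 and 286 (log2 -3.32 ± 0.55, adjusted p = 0.000301), and the other arm, miR-335-5p, was also lower (log2 -2.62 ± 0.54, adjusted p = 0.00188). miR-141-5p had 13 and 4 counts against 656 and 830 (log2 -2.91 ± 0.34, adjusted p = 1.52e-05). Each of these was low in both epithelial libraries despite ample tissue counts for miR-210-5p, miR-335-3p and miR-141-5p. miR-365-3p had 1 epithelial count in all against 145 in tissue, a ratio of 12 per scaled library size with an exact 95% counting interval of 2.12 to 478, and its adjusted p of 0.00635 became 0.181 without epithelial replicate 1.

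Among miRNAs with a mean of 10 counts or fewer in epithelial cells, 4 were nevertheless higher there. miR-132-3p, a CREB-induced miRNA, had 11 and 6 epithelial counts against 30 and 15 in tissue (log2 2.31 ± 0.56, adjusted p = 0.00558). miR-1247-5p had 8 and 4 counts against 16 and 20 (log2 2.06 ± 0.41, adjusted p = 0.00138) and was called whichever corpus library was left out. The calls of miR-132-3p, miR-1198-5p and miR-29a-5p were lost without at least 1 corpus library, with adjusted p-values of 0.0713 for miR-132-3p without epithelial replicate 1, 0.0748 to 0.281 for miR-1198-5p without epithelial replicate 1 or tissue replicate 1, and 0.0605 to 0.0992 for miR-29a-5p without epithelial replicate 1, epithelial replicate 2 or tissue replicate 1.

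The most abundant miRNAs were largely the same in both preparations, with 9 of the 10 most abundant shared. Across the 147 miRNAs present in both, log2 CPM correlated between the preparations with r = 0.912, against 0.98 between the epithelial replicates and 0.996 between the tissue replicates. These correlations are across miRNAs, which are not independent replicates. miR-148a-3p, the most abundant miRNA of tissue, had 91639 and 73058 CPM in epithelial cells and 114650 and 108112 CPM in tissue (log2 -0.44). miR-10b-5p had 81887 and 66342 CPM against 97234 and 108126 CPM (log2 -0.47), and miR-10a-5p 61690 and 56791 CPM against 61197 and 66058 CPM (log2 -0.10). None of these reached 2-fold. miR-22-3p came just short of it, with 53368 and 45360 CPM against 98264 and 98588 CPM (adjusted p = 9.59e-06). miR-191-5p had a log2 difference of -0.89 and let-7c-5p, which was among the 10 most abundant of epithelial cells only, had 0.98. let-7f-5p (0.01), miR-21a-5p (-0.24) and miR-26a-5p (-0.51) differed less.

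Markers of cell types tested the labels. The 10 miRNAs listed for epithelial identity made up 4.43 and 5.15% of the epithelial counts and 2.97 and 2.94% of the tissue counts. 2 were called higher (miR-205-5p and miR-203-3p), 1 lower and 7 were not called, and their median difference was 0.34 log2 beside -0.17 for all miRNAs tested. The listed 3p arms of the miR-200 family were not called, whereas the 5p arm miR-141-5p (log2 -2.91) was called lower. miR-200c-5p was also called lower (0 and 0 counts against 37 and 15, adjusted p = 0.0372), but the epithelial depth gives little power for it. At its tissue share of the hairpin only 2.47 and 1.94 counts would fall in the epithelial libraries. miR-200b-3p was at 3487 and 4081 CPM against 2219 and 2172 CPM (log2 0.78), miR-429-3p at 2182 and 2660 CPM against 1796 and 1354 CPM (0.62), and miR-200c-3p at 4268 and 4584 CPM against 4080 and 4450 CPM (0.05). miR-200a-3p (-0.31) and miR-141-3p (-0.28) were slightly below tissue. miR-182-5p, a sensory and epithelial miRNA, was called lower (3936 and 3506 CPM against 7271 and 7733 CPM, log2 -1.01 ± 0.16, adjusted p = 0.000198) at the edge of the 2-fold rule, and lay between -1.11 and -0.91 under other settings. It was called in 4 of 11 alternatives and lost its call without epithelial replicate 2 or tissue replicate 2 (log2 -0.93 and -0.92). The remaining listed miRNAs, miR-183-5p (log2 0.61 to 0.82 under other settings) and miR-96-5p (-0.97 to -0.77), were not called and lay in opposite directions.

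The summed share of smooth muscle markers was higher in the epithelial preparation than in tissue, opposite to its label. The study also assessed the cells by protein markers, which are not among the values used here. The 4 listed miRNAs made up 20.6 and 23.1% of the counts in the epithelial libraries and 8.65 and 8.36% in tissue. Of the 3 tested, miR-143-3p and miR-145a-5p were called higher, beside 8.11% of all miRNAs tested, and miR-145a-3p was not called (133 and 50.4 CPM against 124 and 120 CPM, log2 -0.43). miR-143-3p was by far the largest part of this share. The striated muscle list was also higher in its sum, with 0.0575 and 0.0641% of epithelial counts against 0.00668 and 0.0191% of tissue counts, in epithelial cells nearly all of it miR-133a-3p, while miR-1a-3p was not called (log2 -0.30 ± 1.52) and miR-208b-3p and miR-499-5p were at 0 in both epithelial libraries. The isolation was designed to leave muscle cells behind, and their part in these differences was not tested. In bulk libraries such as these, fewer cells of a type and less miRNA per cell cannot be told apart.

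The 4 leukocyte miRNAs tested were all below tissue in both epithelial libraries, as were 48% of all miRNAs tested. The epithelial libraries held 0.0685 and 0.0562% against 0.125 and 0.159% in tissue, and 1, miR-142a-5p, was called. miR-150-5p was at 125 and 70.5 CPM against 134 and 151 CPM and was not called. The endothelial miR-126a arms made up 1.39 and 1.44% of epithelial counts and 1.59 and 1.53% of tissue counts, with neither called. Of the erythroid list 0 of 3 were called, and miR-451a was at 59 and 50.4 CPM against 57.9 and 43.7 CPM. The epithelial preparation thus held leukocyte markers at 0.439 times and endothelial markers at 0.908 times their tissue share.

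The fibroblast and stromal list was divided by hairpin arm rather than as a whole. 3 of its 6 members were called lower (17.9% of all tested were), all of them 5p arms: miR-199a-5p, miR-199b-5p (36.9 and 40.3 CPM against 233 and 235 CPM, log2 -2.46 ± 0.45, adjusted p = 0.000678) and miR-214-5p (22.1 and 10.1 CPM against 89 and 110 CPM, log2 -2.33 ± 0.49, adjusted p = 0.00198). The call of miR-214-5p was lost without 1 corpus library (adjusted p = 0.0508). The 3p arms were not called. miR-199a-3p and miR-199b-3p, which have the same mature sequence and share their reads, were each at 1566 and 1894 CPM against 882 and 925 CPM (log2 0.92), and miR-214-3p was at 73.7 and 131 CPM against 78.6 and 92.1 CPM (log2 0.23). The list as a whole made up 0.398 and 0.488% of epithelial counts and 0.4 and 0.424% of tissue counts.

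**Figure D3:**
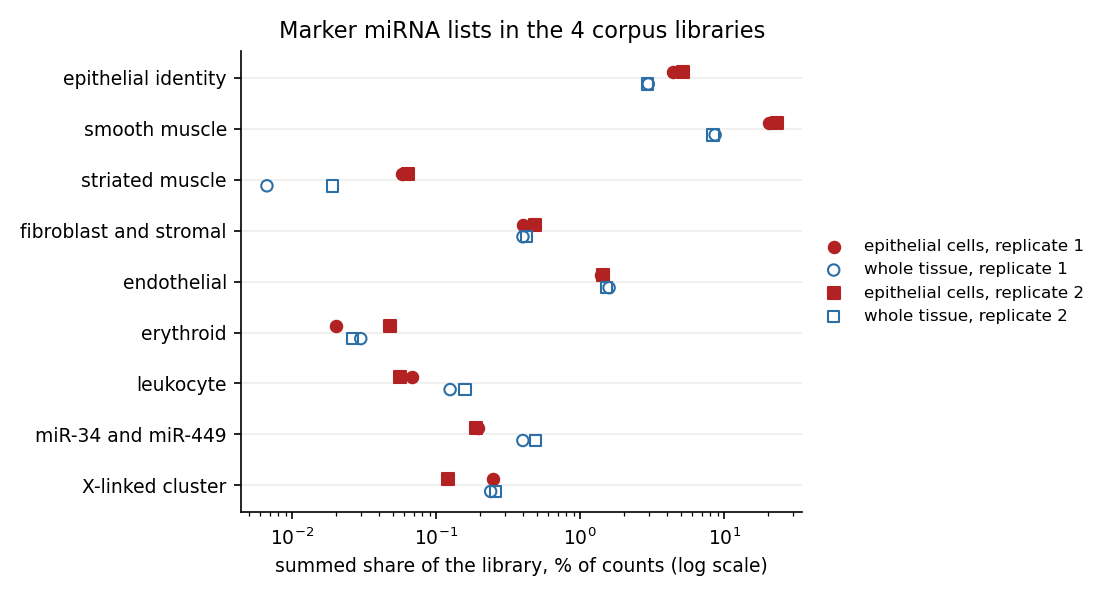
Summed share of each marker list in the counts of the 4 corpus libraries (x axis, percent, log scale); filled symbols are epithelial libraries, open symbols tissue libraries, circles replicate 1 and squares replicate 2. Smooth muscle markers are the largest share and are higher in epithelial libraries (20.6 and 23.1% against 8.65 and 8.36%), epithelial markers are modestly higher, and leukocyte and miR-34 and miR-449 markers are lower.

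Of 5 tested miR-34 and miR-449 miRNAs, known from male germ cells and multiciliated cells, 2 were called lower and 0 higher, against 17.9% and 8.11% of all tested. All 5 lay below tissue in both epithelial libraries, as did 48% of all miRNAs tested, with 0.196 and 0.188% of epithelial counts against 0.4 and 0.491% of tissue counts. Besides miR-34c-3p, miR-34c-5p was called (1633 and 1516 CPM against 3227 and 4082 CPM, log2 -1.20 ± 0.34, adjusted p = 0.0156), a call lost without 3 of the corpus libraries (adjusted p = 0.0703 to 0.0833). miR-34b-3p (log2 -1.38), miR-449a-5p (-0.92) and miR-34b-5p (-0.68) were not called, although miR-34b-3p was called lower in 5 of 10 alternatives. Of 18 tested miRNAs of the testis-expressed X-linked cluster, 5 were lower and 0 higher, beside 17.9% lower and 8.11% higher among all tested, with a median of -0.49 log2 beside -0.17. These were miR-465a-3p, miR-465b-3p and miR-465c-3p, which have 1 mature sequence and therefore 1 difference (log2 -2.01 ± 0.54), miR-743a-3p and miR-871-5p. The epithelial libraries differed for this cluster, at 0.246 and 0.121% against 0.239 and 0.258% in tissue, so that only replicate 2 lay below tissue. The 3 miR-465 calls were lost without 1 corpus library (adjusted p = 0.293), as were those of miR-743a-3p and miR-871-5p without 3 and 2 libraries. Of the most abundant members, miR-881-3p (log2 -0.61), miR-743b-3p (-1.41), miR-470-5p (-0.03), miR-871-3p (0.19) and miR-741-3p (0.01) were not called.

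The imprinted Dlk1-Dio3 cluster had 18 tested miRNAs, of which 4 were lower and 0 higher, a share of lower calls near the 17.9% of all miRNAs tested. Their median was -0.64 log2, and 14 of the 18 lay below tissue in both epithelial libraries, as did 48% of all tested. Its share was 0.337 and 0.319% of epithelial counts and 0.639 and 0.653% of tissue counts. Beside miR-411-5p these were miR-381-3p (36.9 and 20.2 CPM against 162 and 147 CPM, log2 -2.24 ± 0.45, adjusted p = 0.00149), miR-410-3p (125 and 111 CPM against 257 and 263 CPM, log2 -1.08 ± 0.33, adjusted p = 0.0213) and miR-541-5p (3 and 1 counts against 66 and 105). The last 2 lost their calls without 3 of the corpus libraries each (adjusted p = 0.0572 to 0.105 and 0.0971 to 0.282). Of the other imprinted group, the Sfmbt2 intronic cluster, 0 of 7 were called.

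Members of broadly expressed families were mostly not called, as were 219 of all 296 miRNAs. The let-7 family, which shares the seed GAGGUAG, had 1 of 9 higher, let-7b-5p (2974 and 3753 CPM against 1423 and 1259 CPM, adjusted p = 7.88e-06), and let-7c-5p and let-7i-5p (log2 0.98 and 0.79) had small adjusted p-values below the 2-fold rule. let-7c-5p was called higher in 6 of 11 alternatives (log2 0.88 to 1.08), so that the family count depends on the setting. The family ranged from -0.36 to 1.31 log2 with a median of 0.41. Of 5 members of the miR-30 family 2 were higher, miR-30a-5p (7622 and 9955 CPM against 2978 and 3528 CPM, adjusted p = 1.52e-05) and miR-30e-5p (921 and 1239 CPM against 513 and 522 CPM, log2 1.03), and the latter fell below 2-fold without 1 or another of 2 corpus libraries (log2 0.84 and 0.99). The others stood at 0.96 (miR-30c-5p, called higher in 5 of 11 alternatives), -0.20 (miR-30d-5p) and -0.39 (miR-30b-5p). Of 9 members of miR-17-92 and its paralogous clusters, which promote proliferation, 2 were higher, miR-20a-5p (486 and 524 CPM against 214 and 196 CPM, adjusted p = 0.000627) and miR-25-3p (2462 and 2630 CPM against 1129 and 1164 CPM, adjusted p = 2.24e-05), and 7 lay above tissue in both libraries. Of all miRNAs tested 8.11% were called higher and 26.4% lay above tissue in both libraries. Of the miR-29 family 0 of 3 and of miR-204 and miR-211 0 of 2 were called.

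The arms of 3 hairpins (let-7b, miR-1247 and miR-205) were called in opposite directions, among the 72 hairpins with both arms tested. In each, the lower arm passed the filter on low counts through tissue alone. Mean epithelial counts were 3.5 for let-7b-3p, 0 for miR-1247-3p and 2.5 for miR-205-3p. At its tissue share miR-1247-3p would have had 4.31 and 2.15 epithelial counts, so the epithelial depth gives little power for it. For these 72 hairpins the less abundant arm was taken from the caput and cauda libraries, which were not used for the corpus values. This comparison was chosen after values had been seen. Among the less abundant arms 22 were called lower and 4 higher, beside 17.9% lower and 8.11% higher among all miRNAs tested. However, 57 of these arms passed the filter on low counts through the deeper tissue libraries alone, and 19 of the 22 lower calls and 1 of the higher ones were among them. Of the 15 less abundant arms present in epithelial cells as well, 3 were lower and 3 higher, so the counts give no direction for less abundant arms as a class. Since the share of an arm within its hairpin does not depend on scaling between libraries, it was also compared directly. The share of the less abundant arm was lower in both epithelial libraries than in both tissue libraries for 39 of the 72 hairpins, higher for 13 and overlapping for 20. The same filter bears on these counts, since most of the arms entered through tissue and some had less than 1 count to be expected in an epithelial library, where a count of 0 reads as a lower share. They are therefore no sign of a direction either. The plot of arm shares is limited to 35 hairpins in which that arm would have reached at least 3 counts in each epithelial library at its tissue share. That limit favours arms with a high share in tissue, so its counts (22 lower, 8 higher and 5 overlapping) describe the plotted hairpins alone.

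The miR-205 hairpin was an example at high depth. miR-205-3p made up 0.0778 and 0.137% of the hairpin in epithelial cells and 4.45 and 3.43% in tissue, so that the 5p arm was higher (log2 3.37) while the 3p arm was lower (2 and 3 counts against 127 and 102, log2 -1.69 ± 0.58, adjusted p = 0.0334). miR-148a-5p, a called fall at 147 and 101 CPM against 890 and 694 CPM (log2 -2.61 ± 0.30, adjusted p = 1.34e-05), made up 0.161 and 0.138% of its hairpin against 0.77 and 0.638%, while miR-148a-3p was not called. The same held for miR-148b-5p (2.78 and 3.45% against 19.9 and 20.5%), which carries the same seed. miR-210-5p made up 0.676 and 2.54% of its hairpin in epithelial cells and 22.4 and 20.3% in tissue. miR-141-5p made up 5.17 and 2.06% against 18.2 and 19.8%, and miR-145a-3p 3.13 and 0.465% against 24.4 and 22.9%. In each of these hairpins both epithelial shares were well below both tissue shares.

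Other hairpins went the opposite way. miR-28a-3p made up 60.6 and 53.3% of its hairpin in epithelial cells and 14.4 and 17.5% in tissue. miR-151-3p made up 41 and 47.5% against 28.9 and 26.3%, and let-7d-3p 15.2 and 15.1% against 11.3 and 8.23%. In the miR-30a hairpin both arms were higher, with the 3p arm at 11.6 and 10.8% against 10.6 and 9.29%. Summed over 193 hairpins, less abundant arms made up 1.07 and 1.09% of the counts in corpus epithelial cells and 1.47 and 1.43% in corpus tissue. In the caput the corresponding shares were 1.31 and 1.21% in epithelial cells and 1.27 to 1.39% in tissue, and in the cauda 1.51 and 1.75% against 1.40 to 1.51%. The lower sum was seen in the corpus; whether it differs between segments was not tested.

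**Figure D4:**
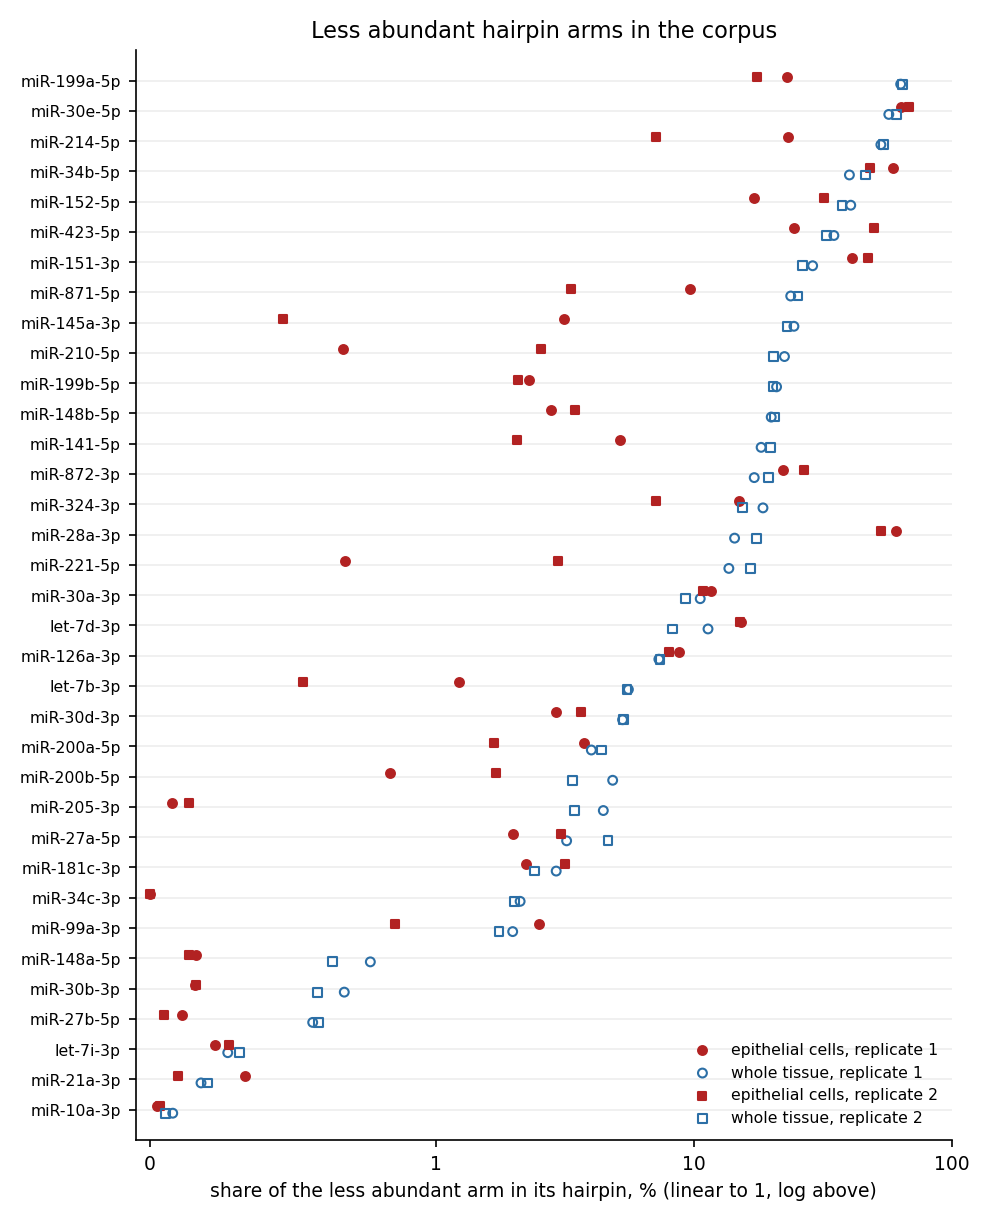
Share of the less abundant arm in the counts of its hairpin (x axis, percent, linear to 1 and log above) for the 35 hairpins with enough counts, with filled symbols for corpus epithelial libraries, open symbols for corpus tissue libraries, circles for replicate 1 and squares for replicate 2; arms were ranked on caput and cauda libraries. For 22 arms both epithelial shares lie left of both tissue shares, and miR-28a-3p is farthest to the right of its tissue shares.

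The median GC content was 45.5% among miRNAs called higher, called lower and tested, of which 257 of 296 had a sequence in the RefSeq table. The first base was U in 11 of 19 higher miRNAs (57.9%), 15 of 48 lower ones (31.2%) and 120 of all 257 (46.7%). The last base was U in 3 of the higher (15.8%), 17 of the lower (35.4%) and 98 of all (38.1%). These shares are descriptive, since arms and family members share sequence.

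Most calls in the corpus were also made in another segment. The same fit gave the difference of epithelial cells from tissue in caput and cauda, from other libraries but with the same confounding of table and preparation. Of the 24 miRNAs higher in the corpus, 18 were called higher in the caput and 19 in the cauda, and all 24 in at least 1 of them. Of the 53 lower, 42 were called lower in the caput, 35 in the cauda and 6 in neither. Over the 147 miRNAs present in both corpus preparations, the corpus differences correlated with those of the caput (r = 0.878) and the cauda (r = 0.81), as a description across miRNAs.

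Where the corpus stood apart was tested as its difference minus the mean of the caput and cauda differences. Only 5 of the 296 miRNAs were called (1.69%), all of them lower in corpus epithelial cells than the other segments would give, and 44 had an unadjusted p below 0.05. Both arms of miR-126a, the endothelial miRNA transcribed with Egfl7, were among them. miR-126a-3p was at 1143 and 1038 CPM in corpus epithelial cells and 1070 and 1054 CPM in corpus tissue, with no difference between preparations (log2 0.05 ± 0.20). In caput epithelial cells it was at 2784 and 2253 CPM and in cauda epithelial cells at 4096 and 4388 CPM, above every tissue library of those segments (943 to 1735 CPM). The corpus contrast was -1.38 ± 0.22 log2 (adjusted p = 0.00303). miR-126a-5p was at 11868 and 11879 CPM in corpus epithelial cells and 13571 and 13234 CPM in corpus tissue, against 26808 and 22604 CPM in caput and 53204 and 45380 CPM in cauda epithelial cells, and had a contrast of -1.31 ± 0.19 (adjusted p = 0.00192). Both arms were called in each of the 9 alternative fits that included them and without each of the 14 libraries. They were not in the fit limited to names spelled alike, nor can the contrast be made from the corpus libraries alone.

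The other 3 were less secure. miR-150-5p, a lymphocyte miRNA, was at 125 and 70.5 CPM in corpus epithelial cells, 134 and 151 CPM in corpus tissue, 178 and 119 CPM in caput epithelial cells and 561 and 438 CPM in cauda epithelial cells, while caput tissue held 46.6 to 61.4 CPM and cauda tissue 94.2 to 182 CPM (contrast -2.18, adjusted p = 0.0346). miR-139-5p and miR-195a-3p had 0 counts in both corpus epithelial libraries against 12 and 14 and 16 and 16 counts in corpus tissue, which at the epithelial depth is within what a count of 0 allows. All 3 lost the call without any of the 4 corpus libraries, with adjusted p-values of 0.0918 to 0.153 for miR-150-5p, 0.112 to 0.176 for miR-139-5p and 0.0511 to 0.111 for miR-195a-3p. The calls of miR-139-5p and miR-150-5p were also lost without caput epithelial replicate 1, and that of miR-150-5p without cauda epithelial replicate 1.

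**Figure D5:**
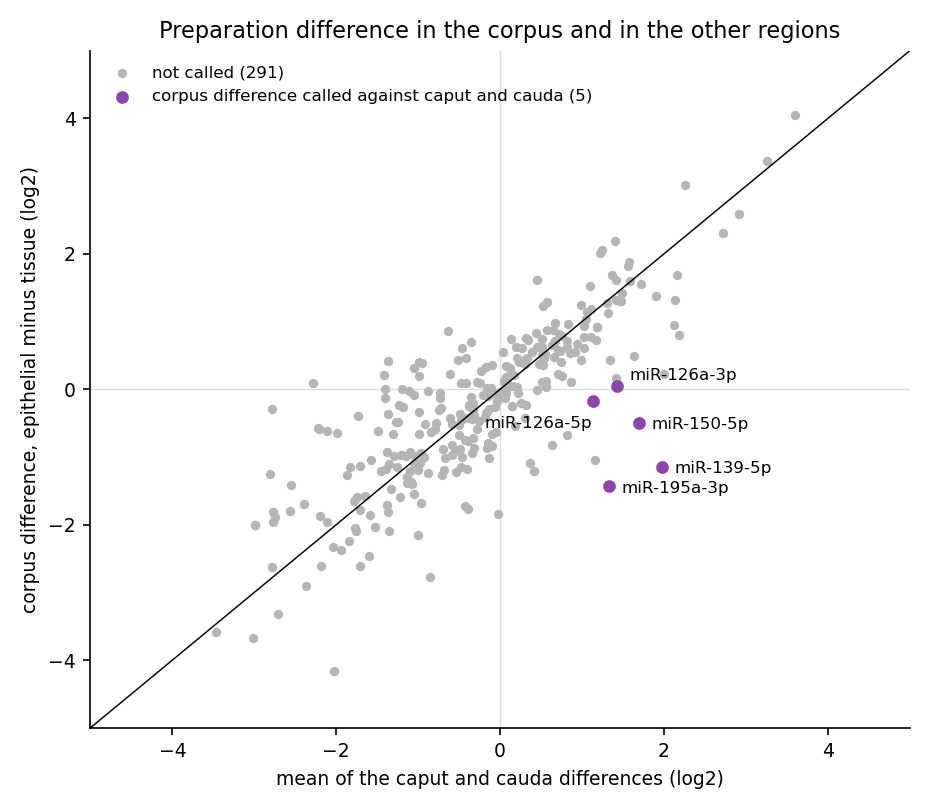
Log2 difference of epithelial cells from tissue in the corpus (y axis) against the mean of the same difference in caput and cauda (x axis) for 296 miRNAs; the line marks equality, and purple points are the 5 miRNAs whose corpus difference was called against the other segments. All 5 lie below the line, with the miR-126a arms near 0 in the corpus.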

How the data were processed

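Small RNA libraries (Illumina TruSeq, HiSeq) of caput, corpus and cauda epithelial cells and whole tissue were analysed. For each preparation a table of expected counts of mature miRNAs was deposited, and the submitters' processing notes name CASAVA 1.8.2, Bowtie 1.1.1 and limma. Some values are fractional, and how reads matching several miRNAs were assigned is not given in the sources used here. A constant of 0.001 carried by the epithelial values was removed. The tables were joined by name: 578 names were alike and 31 matched after adding the letter a, while 68 epithelial and 291 tissue names were unmatched and held at most 0.0668% of the counts of any corpus library. The same name need not stand for the same reference sequence in both tables.

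miRNAs with a mean count above 10 in either corpus preparation were tested with limma 3.58.1 (voom, prior count 0.5, TMM factors from edgeR 4.0.16, R 4.3.3) on all 14 libraries. The fit had 6 groups, 8 residual degrees of freedom and Benjamini-Hochberg adjustment. Counts were rounded to whole numbers for every fit, including the DESeq2 1.42.0 and edgeR alternatives. A call needed an FDR below 0.05 and a difference of at least 2-fold. Intervals and floors of 3 counts cover counting error only. Scripts were tested on simulated data. The miRNAs named were the 10 largest rises and falls with a mean above 10 in both preparations, the 5 largest of each with 10 or fewer in 1 of them, the 10 most abundant of each, the 5 largest of the corpus against the other segments, and members of the lists. Lists and members were chosen with earlier results of these data known. Sequences are from RefSeq and positions from GRCm38.p6. Other tests, scalings, filters, joins and left-out libraries were tried as alternatives.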

Additional observations from a re-analysis of the deposited data

Results flagged for a closer look

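The 5 miRNAs whose difference between epithelial cells and tissue in the corpus differed from the mean of caput and cauda were picked out by a test of that difference in the fit over all libraries. On the log2 scale the contrast was -3.12 for miR-139-5p, -2.76 for miR-195a-3p, -2.18 for miR-150-5p, -1.38 for miR-126a-3p and -1.31 for miR-126a-5p. The first 2 had 0 counts in both corpus epithelial libraries, and their fitted values depend on the prior count. Both arms of miR-126a come from 1 hairpin and are not separate observations. Depth was lowest in the corpus epithelial libraries, and its part in these contrasts was not tested.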

How the results depend on the processing

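The epithelial libraries were the shallower ones, and preparation cannot be told apart from table, naming release and depth. The corpus comparison called 77 miRNAs. It called 182 of 539 (121 higher and 61 lower) with every miRNA of at least 1 count, where 50 of the 121 had 0 counts in both epithelial libraries, 40 of 147 (21 higher and 19 lower) with a mean count above 10 in both preparations, and 41 of 149 (19 higher and 22 lower) with a threshold in CPM. Between 62 and 74 were called by edgeR (74), DESeq2 (62, of which 30 higher), library totals (74), DESeq2 size factors (71), names spelled alike (70), summed sequences (73) and the corpus libraries alone (69). Leaving out single libraries gave 50 to 79. The corpus contrast with the other segments called 5 miRNAs, 3 by edgeR, 3 with either stricter filter, 2 with names spelled alike and 2 to 6 without single libraries. By edgeR and DESeq2 the calls of miR-139-5p and miR-195a-3p were lost, with adjusted p-values of up to 0.165 and 0.176. In tissue 296 miRNAs were present, 149 with a CPM threshold and 158 when scaled to the epithelial total. A fit with a replicate block called 73 and 5 miRNAs, but nothing in the labels says that like-numbered libraries share animals. Deviations of like-numbered corpus libraries correlated at 0.0035 over 296 miRNAs. Many of these had few epithelial counts, so counting error weighs on this correlation and it cannot decide whether the samples were paired. None of the 144 differences of single miRNAs listed under the alternatives was reversed after passing the test, and reversals were not tallied for other called miRNAs. Of the 77 called miRNAs, 47 were called alike in each of the 11 alternatives that tested them, left-out libraries not counted. The other calls changed in at least 1 alternative.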
